A study of Mus musculus with 2 samples.

Results

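Histamine and the other biogenic amines of the uterus are made, sensed and cleared by a small group of proteins, and 7 genes of this group were chosen by name: Hdc, Hnmt, Hrh1, Hrh2, Ddc, Maoa and Maob. A row was found for 6 of the 7 among the 14678 genes of the table, and Ddc was not analysed here. Expression was measured as short sequence tags by digital gene expression (DGE) profiling, and the tags of a gene in a library are called its copies. The Dox+ and Dox- libraries were compared, with 1 library for each condition, made from pooled total RNA of 3 uteri collected on gestation day 2.5 (G2.5), before the embryo implants. The strain of all females is given as VEGFtetO/tetO/beta-AKtg/wt, with both transgenes, and they were littermates of 9 to 10 weeks of age. They carry 4 tet operators in the promoter of Vegfa on both alleles and a tetR-Krab repressor under the beta-actin promoter, which is active in all tissues. In Dox+ mice the chow held 200 mg/kg doxycycline, which takes the repressor off Vegfa and leaves VEGF normal, and Dox- mice ate regular chow from the age of 3 to 4 weeks, so that VEGF was repressed. The Dox+ group is labelled as wild type, but it carries the same alleles as the Dox- group. The presence of doxycycline and the state of VEGF cannot be told apart, and with pooled RNA a difference has no replicate check within these libraries. By quantitative PCR on uteri at G2.5, the paper reports Hdc, Sult1d1, Ihh and VEGF, among others, as down-regulated in Dox-. It does not state whether those uteri were other than the pooled ones.

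Histidine decarboxylase, encoded by Hdc, makes histamine from histidine. Histamine acts on cells through the receptors encoded by Hrh1 and Hrh2 and is inactivated inside cells by the methyltransferase encoded by Hnmt. The monoamine oxidases of the outer mitochondrial membrane, encoded by Maoa and Maob, oxidize serotonin, catecholamines, trace amines and the methylated product of histamine. Mast cells store histamine, and in the mouse uterus before implantation Hdc is also known as a gene of the epithelium that responds to progesterone.

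The 250 bases before the transcription start are shown for Hdc and Maoa, which had fewer copies in the Dox- library, and for the first of the 4 annotated starts of Hrh1, which had more. The sequences are those of RefSeq (GRCm38.p6), each placed at its exact match in NCBIM37, the assembly also called mm9, and are written 5′ to 3′ on the strand of the gene. Capitals mark matches to the motifs searched on both strands, which were the steroid receptor half-site AGAACA, the estrogen receptor half-site AGGTCA, the E-box CACGTG and the GATA site AGATAA.
Hdc, minus strand, chr2:126444415-126444664: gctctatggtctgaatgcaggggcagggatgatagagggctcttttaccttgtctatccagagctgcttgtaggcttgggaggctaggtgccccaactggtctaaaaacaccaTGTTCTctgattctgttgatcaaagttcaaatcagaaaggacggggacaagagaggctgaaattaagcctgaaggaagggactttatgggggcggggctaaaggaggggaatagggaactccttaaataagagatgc
Maoa, plus strand, chrX:16196574-16196823: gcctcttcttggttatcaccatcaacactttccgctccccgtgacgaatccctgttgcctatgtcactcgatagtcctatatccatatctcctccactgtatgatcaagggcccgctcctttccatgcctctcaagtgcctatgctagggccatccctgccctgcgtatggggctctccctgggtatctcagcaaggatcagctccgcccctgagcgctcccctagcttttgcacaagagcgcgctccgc
Hrh1, plus strand, chr6:114347680-114347929: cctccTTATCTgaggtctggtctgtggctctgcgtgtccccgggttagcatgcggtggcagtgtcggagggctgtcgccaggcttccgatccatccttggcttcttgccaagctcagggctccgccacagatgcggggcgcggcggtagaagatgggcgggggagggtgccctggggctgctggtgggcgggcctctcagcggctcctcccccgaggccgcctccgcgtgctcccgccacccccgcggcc
The Hdc sequence held 1 steroid receptor half-site, on the opposite strand with its first letter 137 bases before the start. The longest coding transcript of Hdc in GENCODE also begins at this start, and a shorter annotated transcript begins further upstream. The Hrh1 sequence held 1 GATA site on the opposite strand, 245 bases before the start, and the Maoa sequence held none of the motifs. Of the other starts of Hrh1, whose sequences are not shown, start 3 held 1 steroid receptor half-site, 138 bases before it, and start 4 held 1 estrogen receptor half-site, 69 bases before it. Of 32851 promoter sequences of the same length, 16.1% held the steroid receptor half-site, 14.0% the estrogen receptor half-site, 6.02% the E-box and 9.99% the GATA site. A match of 6 letters is a description of the sequence and does not show that a factor binds there.

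The Dox+ library had 5985925 clean tags and the Dox- library 5844314, and the copies of the table made up 74.1% and 72.2% of them. Vegfa, the repressed gene, had 247 copies in Dox+ and 125 in Dox-, 51.8% of the Dox+ level (41.5 to 64.5%). All 12 listed markers of uterine epithelium, all 6 of smooth muscle and all 6 of stroma had copies in both libraries, as the label uterus implies. Intervals here and below are exact 95% intervals of counting error alone. They hold no variation between mice.

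Hdc (chromosome 2, 126419403 to 126445035, minus strand), the gene of histamine synthesis, was counted 1928 times in Dox+ and 137 times in Dox-. Its level was 322 copies per 1000000 clean tags (TPM) in Dox+ and 23.4 in Dox-. The level was thus 13.7-fold lower in Dox- (11.5 to 16.5), a log2 ratio, Dox- over Dox+, of -3.78. When all detected genes of a library were ranked by copies, Hdc came at percentile 97.7 for Dox+ and 62.0 for Dox-. Hdc was therefore among the abundant transcripts of the VEGF-normal uterus and of middling abundance under repression.

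Maob (chromosome X, 16286408 to 16394492, minus strand) had 888 copies in Dox+ and 49 in Dox-. This was a 17.7-fold lower level in Dox- (13.3 to 24.1), from 148 to 8.38 TPM. Maoa (chromosome X, 16196824 to 16264944, plus strand) had 417 copies in Dox+ and 164 in Dox-, a 2.48-fold lower level (2.07 to 2.99). Both oxidases were lower in the Dox- library, and their intervals were far apart, with Maob the more reduced. The interval of Maob overlapped that of Hdc, so that the counts do not order these genes. In the ranking of detected genes, Maob came at percentile 94.3 and 37.1, and Maoa at 86.0 and 66.8.

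Hnmt (chromosome 2, 23858430 to 23904914, minus strand), the gene of histamine methylation, had 66 copies in Dox+ and 50 in Dox-. The log2 ratio was -0.37, and the ratio of 0.776 had an interval of 0.526 to 1.14, so that no difference was detectable at this depth. Hdc copies per Hnmt copy were 29.2 in Dox+ (22.9 to 37.9) and 2.74 in Dox- (1.97 to 3.87). The gene that makes histamine and the gene that inactivates it therefore did not move alike.

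Hrh1 (chromosome 6, 114347930 to 114433290, plus strand), the H1 histamine receptor, had 5 copies in Dox+ and 68 in Dox-. The level was 13.9-fold higher in Dox-, with a wide interval, 5.69 to 44.3, because of the 5 copies. It was the only one of the 6 genes with more copies in Dox- than in Dox+, and it went from percentile 8.54 to percentile 44.3 of the detected genes. Among the 5532 genes with 20 to 199 copies in both libraries combined, 0.307% had a log2 ratio at or above the 3.80 of Hrh1. Hrh1 reached 20 copies through the Dox- library and was chosen with its values known, so that this share tests nothing.

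Hrh2 (chromosome 13, 54287498 to 54317801, plus strand), the H2 histamine receptor, had 2 copies in Dox+ and 0 in Dox-. A count of 0 allows up to 3 copies, or 0.513 TPM in the Dox- library, and no fold change was taken. Tags seen only once had been removed before the genes were counted, so that a 0 does not show that the transcript was absent.

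**Figure D1:**
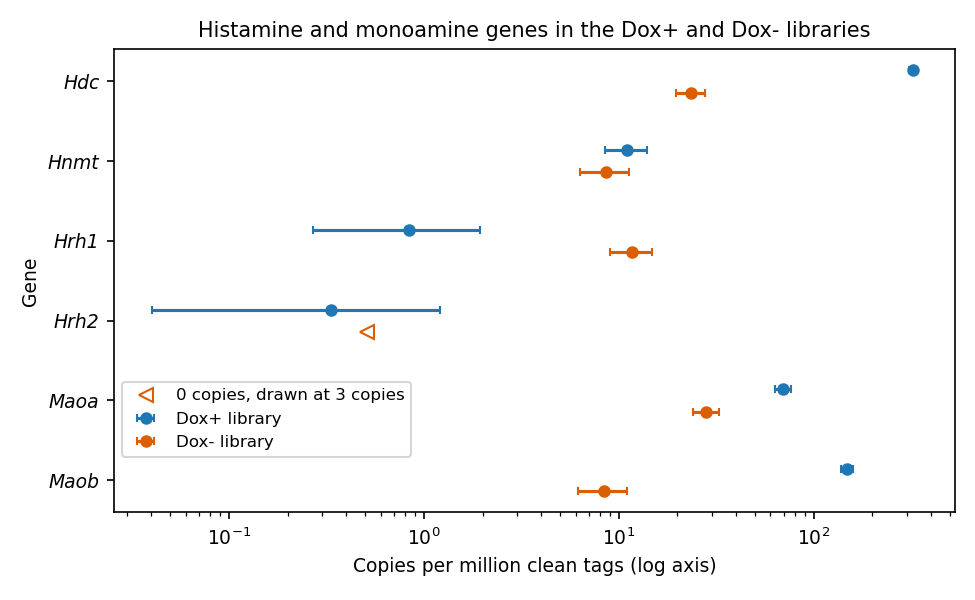
Level of the 6 genes with a row, in copies per 1000000 clean tags on a log axis, in the Dox+ (blue) and Dox- (orange) libraries, 1 library each. Bars are exact 95% Poisson intervals of counting error, and the open triangle is a count of 0 drawn at 3 copies. Hdc, Maoa and Maob are lower in Dox-, Hrh1 is higher, and the intervals of Hnmt overlap.

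A common rule was applied to all genes, which asked for 200 copies or more over both libraries and an absolute log2 ratio above 0.5. Hdc, Maoa and Maob reached 200 copies, and all 3 were lower in Dox- by this rule, against 17.8% of the 6547 genes tested. None of them was higher, against 18.8% of these genes. At a fold change of 2 or more all 3 were lower and none higher, against 5.62% and 4.61% of the genes. The genes had been chosen with their values known, and all 3 reached 200 copies through the Dox+ library, so that this count describes them and tests nothing. Counted from the lowest ratio, Maob was rank 9, Hdc rank 13 and Maoa rank 179 of the 6547 genes. Nearest to Hdc in this order were Fst, follistatin, with 725 and 44 copies, and Mt2, a metallothionein, with 8168 and 660. Nearest to Maob were Ndp with 271 and 14 copies and Ihh, Indian hedgehog, with 646 and 37.

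**Figure D2:**
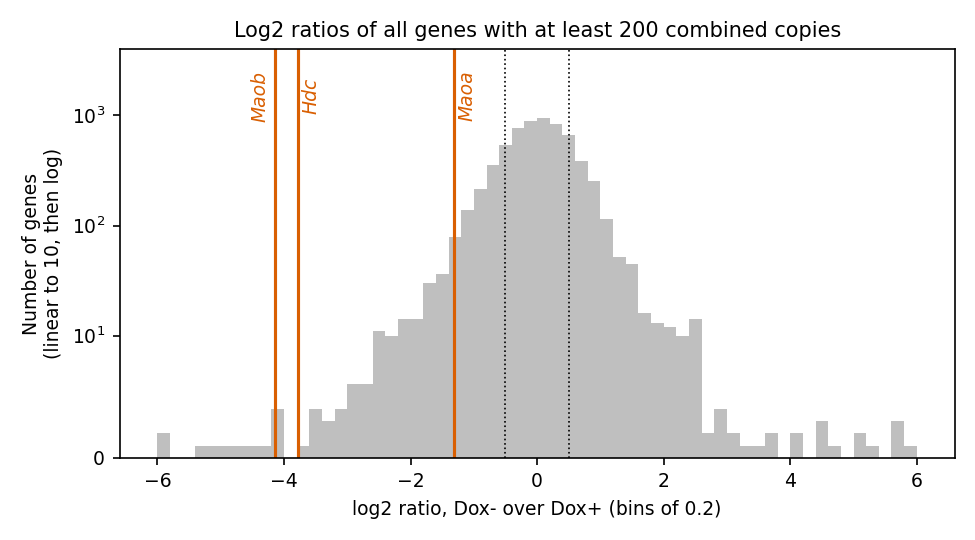
Number of genes by log2 ratio, Dox- over Dox+, in bins of 0.2, for the 6547 genes with at least 200 combined copies. The vertical axis is linear to 10 and logarithmic above, 2 genes beyond 6 in absolute log2 ratio are drawn in the end bins, dotted lines mark -0.5 and 0.5, and orange lines mark Maob, Hdc and Maoa. Maob at -4.15 and Hdc at -3.78 lie in the far lower tail, and Maoa at -1.31 lies between that tail and the bulk of the genes.

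Levels of different genes were compared per kb of the longest coding transcript in GENCODE, which holds only if tags arise along the whole transcript, a point the sources leave unclear. In the Dox+ library Hdc stood first with 135 TPM per kb, followed by Maob with 61.5, Maoa with 16.7, Hnmt with 6.66, Hrh1 with 0.221 and Hrh2 with 0.120. The counting intervals of Hrh1 and Hrh2 overlapped, and those of the other neighbours in this order did not. In the Dox- library the order was Hdc with 9.80, Maoa with 6.73, Hnmt with 5.17, Maob with 3.48, Hrh1 with 3.08 and Hrh2 with 0. Per kb Hdc remained first, its interval (8.23 to 11.6) above that of Maoa (5.74 to 7.85). Maoa and Hnmt, Hnmt and Maob, and Maob and Hrh1 could not be ordered beyond counting error on this scale. Without division by length the Dox- order was another. Maoa, with 164 copies (140 to 191), came before Hdc, with 137 (115 to 162), and these intervals overlapped. Hrh1, with 68 copies, came before Hnmt, with 50, and Maob, with 49. First place in Dox- thus depended on the scale. The spread of levels over Hdc, Maob, Maoa, Hnmt and Hrh1 was thus much narrower under repression.

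The balance of the monoamine oxidases also differed. Maob made up 68.0% of the 1305 copies of both genes in Dox+ (65.4 to 70.6%) and 23.0% of the 213 copies in Dox- (17.5 to 29.2%). Per kb of transcript the share of Maob was 78.6% in Dox+ and 34.1% in Dox-, so that the larger share passed from Maob to Maoa on both scales. Both genes together were 5.98-fold lower in Dox- (5.17 to 6.95).

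Maoa and Maob lie next to each other on chromosome X with their 3′ ends facing, 21.5 kb apart. Beyond Maob follows Ndp, which encodes the secreted protein norrin, at a distance of 68.2 kb (16462647 to 16488900, minus strand). Ndp was 18.9-fold lower in Dox- (11.1 to 35.0). The next gene with a row after Ndp was Efhc2, with 7 and 2 copies, and on the other side of Maoa it was Cask, 2768 kb away, with 64 and 59 copies. These 3 neighbouring genes, Maoa, Maob and Ndp, were thus all lower, while for Cask the interval of the ratio, 0.651 to 1.37, held 1. Efhc2 was named after its values had been seen, and its interval, 0.0297 to 1.54, also held 1.

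No such run of lower genes was seen directly beside Hdc. Slc27a2, 5.42 kb away, had 12 and 11 copies in Dox+ and Dox-, and Gabpb1, 8.14 kb away on the other side, had 95 and 115. Neither differed beyond counting error, with ratios of 0.939 (0.375 to 2.32) and 1.24 (0.937 to 1.64). Beyond Slc27a2, Atp8b4 had 5 and 5 copies. Beyond Gabpb1, Usp8, 88.0 kb from Hdc, had 318 and 231 copies, a ratio of 0.744 (0.625 to 0.884), lower beyond counting error. Atp8b4 and Usp8 were named after their values had been seen. Beside Hrh1, Atp2b2 had 110 and 68 copies and Atg7 had 44 and 35, so that neither was higher in Dox- as Hrh1 was. Beside Hnmt, Spopl had 16 and 45 copies and Il1f8 had 0 and 2. The genes flanking Hrh2 were Sfxn1, with 528 and 702 copies, and Cplx2, with 256 and 294. Those flanking Ddc were Fignl1, with 34 and 21, and Grb10, with 711 and 470.

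Mast cells store histamine, and several of their listed markers were much lower in the Dox- library while others differed little. Of 13 listed mast cell markers, 9 had a row, and none reached 100 copies in either library. The mast cell proteases were all lower in the Dox- library. Cma1, chymase, had 98 and 8 copies, Tpsb2, a tryptase, 95 and 5, and Cpa3, carboxypeptidase A3, 66 and 9. Their levels were 12.0-fold (5.84 to 28.5), 18.6-fold (7.68 to 58.4) and 7.16-fold (3.55 to 16.3) lower. Tpsab1, a second tryptase gene, had 30 and 2 copies, and its level was 14.6-fold lower (3.72 to 126). Mcpt4, another chymase, and Mrgprb1, a receptor gene of mast cells, were at 0 in Dox-, with 28 and 20 copies in Dox+. With each 0 set to 3 copies they were 9.11-fold and 6.51-fold lower, bounds that leave out the counting error in Dox+.

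Not all listed markers followed these proteases. Kit, the receptor for stem cell factor, had 22 and 20 copies, and Hpgds, a prostaglandin D synthase, 19 and 16. Their intervals held 1. Fcer1a, a subunit of the IgE receptor, had 9 and 2 copies and was 4.39-fold lower. Its interval, 0.909 to 41.8, also held 1 and was too wide to set it apart from the proteases. Of the 8 markers with at least 20 combined copies, 6 were lower by more than 0.5 on the log2 scale, against 26.4% of the 5532 genes with 20 to 199 copies, and none was higher, against 28.2%. All 6 were at least 2-fold lower, against 13.0% of these genes. These 6 markers reached 20 copies through the Dox+ library alone, so that the counts and the median describe them and test nothing. The median log2 ratio of the 8 markers, with Mcpt4 and Mrgprb1 at their bounds, was -3.01, beside 0.03 for the genes with 20 to 199 copies.

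The summed mast cell markers went from 64.7 to 10.6 TPM, and the 5 proteases, summed after their values had been seen, from 317 to 24 copies. All 9 markers together were 6.09-fold lower (4.65 to 8.10), an interval that lay below that of Hdc. The proteases together were 12.9-fold lower (8.51 to 20.4). This interval overlapped that of Hdc, but the proteases had been picked by their values. Hdc had 4.98 times as many copies as all 9 markers together in Dox+ and 2.21 times as many in Dox-. Fewer mast cells and less of these transcripts in each cell cannot be told apart in whole uterus, and the part of mast cells in the lower Hdc was not tested.

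**Figure D3:**
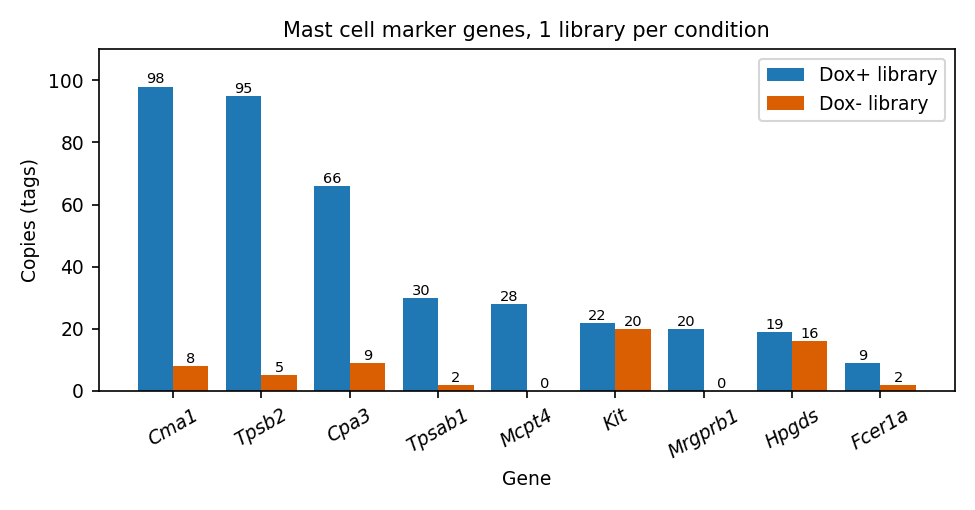
Copies of the 9 mast cell markers with a row in the Dox+ (blue) and Dox- (orange) libraries, 1 library each, with the count written above each bar. The proteases Cma1, Tpsb2, Cpa3, Tpsab1 and Mcpt4 have 28 to 98 copies in Dox+ and 0 to 9 in Dox-, while Kit and Hpgds have nearly equal bars.

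Uterine epithelium, the other known source of Hdc, had markers that differed in both directions. The 12 epithelial markers summed to 1323 TPM in Dox+ and 1962 in Dox-. By the common rule 6 of them were higher and 2 lower in Dox-, against 18.8% and 17.8% of all genes. Krt19 had 1554 and 2046 copies, Cldn7, a claudin, 877 and 2263, and Krt8 1330 and 1481. Larger differences were seen for Elf3, an epithelial transcription factor, with 185 and 1083 copies, Krt7 with 179 and 600, and Cldn3, a claudin, with 1482 and 494. Cldn3, at 2.93-fold lower (2.64 to 3.25), and Cldn4 were the markers that were lower. The part of the epithelium in the lower Hdc was not tested.

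The genes around these enzymes were followed with 6 lists of 93 genes in all, of which 59 had a row and 22 had at least 200 combined copies. Of the 22 genes, 7 were lower and 6 higher in Dox- by the common rule, beside 17.8% and 18.8% of all genes. Their median log2 ratio was 0.02, beside 0.03 for all genes tested. The differences were uneven over the lists.

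Of 10 genes of monoamine transport and breakdown with enough copies, 6 were lower and 1 higher in Dox-, beside 17.8% and 18.8% of all genes tested, and the median log2 ratio was -0.66, beside 0.03. Sult1d1, a sulfotransferase that conjugates catecholamines, had 1328 copies in Dox+ and 34 in Dox-, a 38.1-fold lower level (27.2 to 55.3). Sult1a1, a phenol sulfotransferase, had 477 and 60 copies and was 7.76-fold lower (5.92 to 10.3). Slc6a2, the noradrenaline transporter that takes catecholamines back into cells, had 259 and 40 copies and was 6.32-fold lower (4.52 to 9.06). These 3 genes had the lowest ratios of those with enough copies, which they reached through the Dox+ library.

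Aldehyde dehydrogenases take up the aldehydes that monoamine oxidases produce. Aldh2 had 895 and 499 copies, 1.75-fold lower in Dox- (1.57 to 1.96), and Aldh9a1 had 325 and 193, 1.64-fold lower. Aldh3a2 had a log2 ratio of -0.60 and Aldh7a1, with 897 and 652 copies, one of -0.43, which did not pass the rule. Akr1a1, an aldehyde reductase and the gene of this list with the most copies, had 2110 and 2340. Aoc3, a vascular amine oxidase of another family, had 211 and 208 copies, and its ratio of 1.01 (0.830 to 1.23) showed no detectable difference.

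**Figure D4:**
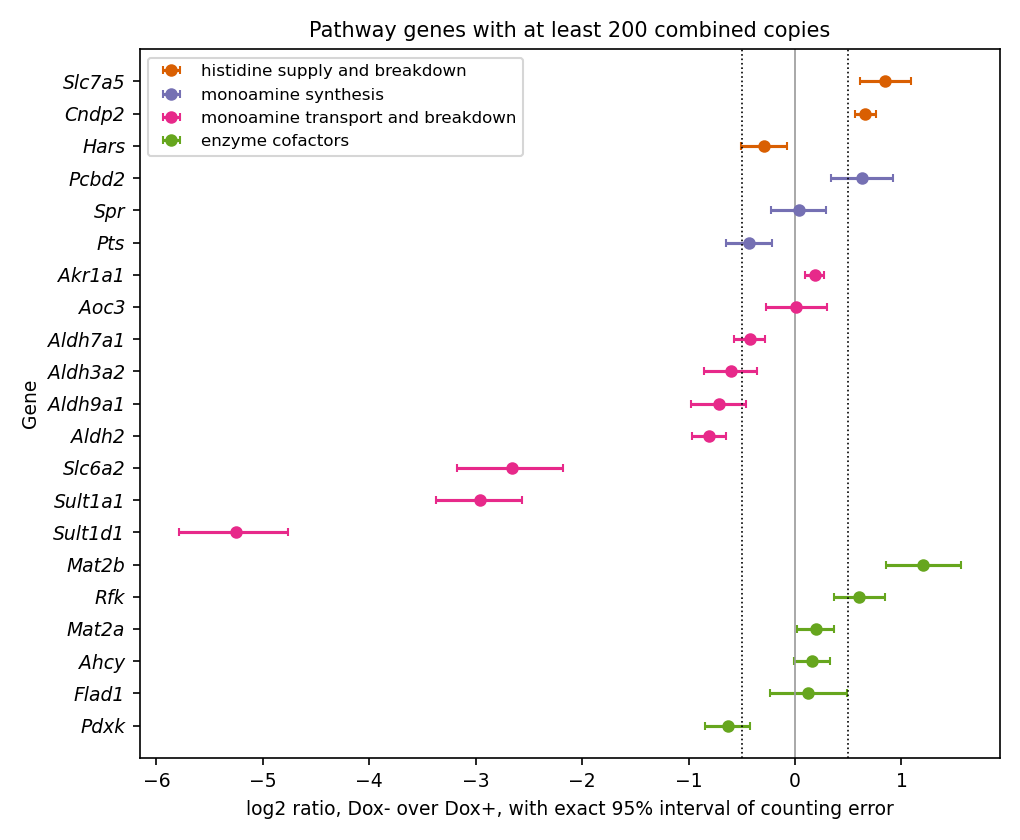
Log2 ratio, Dox- over Dox+, of 21 genes of the pathway lists with at least 200 combined copies, coloured by list. Bars are exact 95% intervals of counting error and dotted lines mark -0.5 and 0.5. Sult1d1 at -5.25, Sult1a1 at -2.96 and Slc6a2 at -2.66 stand apart on the lower side, and Mat2b at 1.20 is the highest of those drawn.

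The other steps of histamine handling were sparsely counted. Of 8 listed genes 5 had a row, and none reached 200 combined copies. Aoc1, diamine oxidase, the extracellular enzyme of histamine breakdown that the table lists as Abp1, had 26 and 44 copies, a ratio of 1.73 (1.04 to 2.93). Slc22a3, a membrane transporter that carries histamine, had 10 and 18 copies, and its interval held 1. Slc18a2, the transporter that loads amines into vesicles, had 3 copies in Dox+ and 0 in Dox-, and no fold change was taken.

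Genes of histidine supply included 3 with enough copies, of which 2 were higher and none lower, beside 18.8% and 17.8% of all genes tested. Cndp2, a dipeptidase that can release histidine from carnosine, had 1276 and 1971 copies, a ratio of 1.58 (1.47 to 1.70). Slc7a5, a carrier of large neutral amino acids, histidine among them, had 232 and 408 copies, a ratio of 1.80 (1.53 to 2.13). Hars, the histidyl-tRNA synthetase, had 395 and 315 copies and was 1.22-fold lower (1.05 to 1.42), which did not pass the rule. Hal, histidine ammonia-lyase, which starts the breakdown of histidine, had 12 copies in Dox+ and 0 in Dox-. With this 0 set to 3 copies Hal was 3.91-fold lower, a bound that leaves out the counting error in Dox+. With fewer copies, Hars2, the mitochondrial synthetase, had 114 and 66 and was 1.69-fold lower (1.23 to 2.32), and Carns1, which makes carnosine, had 21 and 6 and was 3.42-fold lower (1.33 to 10.3). Of the 8 genes of this list with at least 20 combined copies, 3 had a log2 ratio above 0.5 and 3 one below -0.5, so that the list moved in no common direction.

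The enzymes of monoamine synthesis were represented by those of their tetrahydrobiopterin cofactor. Pts, a synthase of this cofactor, had 419 and 303 copies, Spr, sepiapterin reductase, 256 and 256, and Pcbd2, a dehydratase that regenerates the cofactor, 161 and 243. By the common rule Pcbd2 was higher, with a log2 ratio of 0.63, and none was lower, beside 18.8% and 17.8% of all genes tested. Pts was 1.35-fold lower (1.16 to 1.57), which did not pass the rule. Of 15 listed genes 8 had a row, and for Th, Tph1 and Tph2, which start catecholamine and serotonin synthesis, none was found. Gch1, which starts the synthesis of the cofactor, had 7 and 20 copies, a ratio of 2.93 (1.19 to 8.19). Gchfr, a regulator of the enzyme that Gch1 encodes, had 28 and 8 copies and was 3.42-fold lower (1.52 to 8.68). Dbh, which makes noradrenaline from dopamine, had 4 and 6 copies.

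Among the cofactor genes of the enzymes themselves, 6 had enough copies, with 2 higher and 1 lower, beside 18.8% and 17.8% of all genes tested. Pdxk, which makes the pyridoxal phosphate that histidine decarboxylase needs, had 492 and 310 copies and was 1.55-fold lower (1.34 to 1.79). Rfk, riboflavin kinase, on the path to the flavin of monoamine oxidases, had 237 and 352 copies, a ratio of 1.52 (1.29 to 1.80). Mat2b, a subunit of the enzyme that makes the methyl donor used by histamine methyltransferase, had 99 and 222 copies, a ratio of 2.30 (1.80 to 2.94). Ahcy, with 556 and 606 copies, and Mat2a, with 504 and 563, had log2 ratios of 0.16 and 0.19.

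Receptors for serotonin, catecholamines and trace amines were close to the limit of detection. Of 29 listed receptor genes 12 had a row, and none reached 200 combined copies. Adra2a, the alpha-2A adrenoceptor, had 27 and 9 copies, and Htr2b, a serotonin receptor, had 17 and 6. The intervals of 2 receptors, Adra2a and Htr2b, excluded 1, with levels 2.93-fold (1.34 to 7.08) and 2.77-fold (1.04 to 8.57) lower in Dox-. None was higher in Dox- with an interval that excluded 1, so that the pattern of Hrh1 was not seen in these receptors at this depth.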

How the data were processed

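Total RNA of 3 uteri per condition was pooled, and 1 DGE library per condition was sequenced. Tags of low quality, adaptor-only tags and those seen a single time were removed by the authors. The rest was aligned to reference transcripts of mouse (mm9), and the authors deposited the count of unambiguous tags of each gene. The submitters' processing notes name CASAVA, and the aligner is not given in the sources used here. The labels describe fragmentation of mRNA, the paper DGE tags, and this was not resolved. If the copies are 3′ tags, levels per kb do not apply. Sense and antisense tags were both collected by the authors and reported separately in the paper, and the table used here was read as sense counts, which its columns do not state. Tags matching several genes were not counted. The deposited TPM is copies per 1000000 clean tags without length correction, with 0.01 for a count of 0. The table also holds the authors' ratios, P-values and FDR, which were not used.

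Clean tags per library were recovered from the deposited counts and TPM. Fold changes are ratios of copies per clean tag, with intervals from the exact Clopper-Pearson method at 95%. A count of 0 was set to 3 copies, which gives a bound that leaves out the counting error of the other library. Genes with 3 copies or fewer in both libraries were given no fold change. For counts of 1 to 3 the interval was given in place of the bound that had been planned. The conditions could not be tested against each other with a single library each. The 7 genes, the lists and the rules were chosen with earlier results of these data known. Named are the 7 genes, Vegfa, the nearest gene with a row on each side, the genes nearest to Hdc and Maob by ratio, and of each list the 3 genes with the most copies and up to 5 past the rule with the largest ratio, with further genes named for their role. Some list genes are counted but not reported here by name. Besides the 6 pathway lists, marker lists of mast cells, basophils, platelets, epithelium, smooth muscle, stroma, endothelium and macrophages were used. Gene positions and transcript lengths are from GENCODE vM1 on NCBIM37, and 14457 symbols of the table matched.

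The alternatives were the summed copies of the table, TMM factors and median ratios as library sizes, a pseudocount of 1, TPM in place of copies, other minimum copy numbers, a fold change of 2, the Audic-Claverie test, and edgeR's exact test for negative binomial counts with an assumed coefficient of variation of 0.2 or 0.4. The intervals and the Audic-Claverie test were tested on simulated Poisson counts. These follow the model that both assume and hold no variation between mice. Computations were run in R 4.3.3 (edgeR 4.0.16) and in Python 3.11.15 (scipy 1.17.1, numpy 2.4.6, pandas 2.3.3, matplotlib 3.10.9).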

Additional observations from a re-analysis of the deposited data

How the results depend on the processing

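Of 49 values recomputed under an alternative, 44 stayed within counting error or within 1.5 times the count. For Hdc, Hnmt, Hrh1, Maoa and Maob the log2 ratio kept its sign under the other library sizes, the pseudocount and the TPM, from -3.74 to -3.81 for Hdc and from -4.11 to -4.18 for Maob. Hdc, Maoa and Maob were called lower under each alternative except the edgeR test with an assumed coefficient of variation of 0.4, where 2 genes, Hdc and Maob, were called. Without a minimum copy number 1 gene, Hrh1, was called higher, in place of 0. At a fold change of 2 the pathway lists held 1 gene higher, Mat2b, in place of 6, and 3 lower, Slc6a2, Sult1a1 and Sult1d1, in place of 7, by the construction of the stricter rule. Per kb of transcript the share of Maob was 78.6% in place of 68.0% in Dox+ and 34.1% in place of 23.0% in Dox-. No paired analysis was possible because each condition had 1 library, and none could be left out. True variation between pools cannot be estimated, and depth limits Hrh2, the receptors and the mast cell markers.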

Other observations

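Other cell types of the uterus were followed by their markers. The 6 smooth muscle markers summed to 6215 TPM in Dox+ and 4333 in Dox-, with 5 of them lower by the common rule, beside 17.8% of all genes tested. Tagln, with 11417 and 8854 copies, Actg2, with 7436 and 5086, and Myh11, with 4609 and 3169, had the most copies, and Des, with 4647 and 2578, the lowest ratio. The stroma markers summed to 4475 and 4113 TPM, with 1 higher, Lum, and 2 lower, beside 18.8% and 17.8% of all genes tested. Col3a1 had 18514 and 17098 copies, Lum 1549 and 2779, and Vim 2612 and 1680, while Hoxa11, a homeobox gene of the uterine stroma, was 3.20-fold lower (2.95 to 3.47).

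The endothelial markers summed to 179 and 128 TPM. Cdh5, vascular endothelial cadherin, had 446 and 216 copies, Pecam1 243 and 253, and Vwf 177 and 148, and Cdh5 was the marker that was lower by the rule. Below 200 combined copies, Tek, with 87 and 51 copies, and Emcn, with 108 and 64, were 1.67-fold (1.17 to 2.40) and 1.65-fold (1.20 to 2.28) lower. The macrophage markers summed to 64.8 and 78.7 TPM, with Csf1r at 186 and 181, Lyz2 at 127 and 169 and Adgre1 at 70 and 102, and none past the rule, while the intervals of Lyz2 (1.08 to 1.73) and Adgre1 (1.09 to 2.05) lay above 1. The platelet markers Pf4 with 18 and 9 copies, Itga2b with 56 and 39 and Gp1bb with 4 and 7 had intervals that held 1. None of the 2 basophil markers had a row.

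In the GO text of the table, no gene carried the words histamine or amine oxidase. The word monoamine stood beside Slc6a2 and beside Slc6a4, the serotonin transporter, which had 2 copies in Dox+ and 0 in Dox-.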
